A study of Mus musculus with 10 samples.

Results

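The genes described here are a set of 10 that respond to, feed back on or carry Wnt/beta-catenin signalling: Axin2, Lef1, Tcf7, Nkd1, Nkd2, Lgr5, Sp5, Rnf43, Znrf3 and Ctnnb1. They were named from their known roles but with earlier results of these data known, so their counts are a description only. A gene was taken as measured where at least 1 probe set of the array carried its symbol and no other. Of the 10 genes 9 were measured, out of 18193 genes in all; Tcf7 was not analysed here. A gene is represented by the brightest of its probe sets, by the mean of all 10 arrays, and its other probe sets serve as a check.

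The samples came from the lower incisors of wild-type C57BL/6J mice, in which a stretch of the inferior alveolar nerve, which supplies sensation to the lower teeth, had been removed on 1 side. Dental mesenchyme was taken 2 weeks after the operation, at postnatal day 60, and total RNA of each incisor sample was hybridised to 1 array. There were 5 denervated arrays, from the operated side, and 5 contralateral arrays, from the unoperated side of operated mice; all animals carried the same genotype, and their sex was not determined. No unoperated or sham-operated mouse is among the samples, so the loss of the nerve and the surgery cannot be told apart, and an effect reaching both sides would not show. Arrays of equal number were taken as a pair, both incisors of 1 mouse, although the labels do not state that equal numbers mark a mouse.

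Without a Wnt signal, beta-catenin protein is captured by a destruction complex built on axin and APC and is degraded. A Wnt ligand bound to Frizzled and LRP receptors stops this, and beta-catenin then enters the nucleus and switches on target genes together with the TCF and LEF factors. Several targets restrain the pathway in turn. In the tooth this pathway takes part in the formation of the organ and in the differentiation of odontoblasts, the dentin-forming cells, and Axin2 is widely used to mark cells receiving the signal.

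The values are log2 intensities on a scale with array medians between 1.48 and 1.54. Levels of different probe sets are not compared, because probe sets differ in brightness. For 40.7% of the 18193 genes the mean was under 2, at the dim end of the scale. Such values were treated as not told apart from background, by a cut chosen without a detection test. Dspp, a dentin matrix gene of odontoblasts, lay between 11.91 and 12.22 in the denervated and between 12.14 and 12.33 in the contralateral arrays. The tissue is labelled as mesenchyme, but transcripts of the enamel-forming epithelium were also high. The amelogenin gene Amelx lay between 8.23 and 12.94 in the denervated and between 12.80 and 12.94 in the contralateral arrays, the low value being denervated array 3. Which cells the Wnt response transcripts came from is therefore not known, and in such bulk RNA fewer cells of a type and less RNA per cell cannot be told apart.

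None of the 9 measured response genes passed the test between denervated and contralateral incisors, nor did any of the 18193 genes (0%, limma, Benjamini-Hochberg adjusted p under 0.05). With the pair as a block the count was also 0 of 9, against 0% of all genes, and the smallest adjusted p over all genes was 0.79 without and 0.234 with the block. The differences, always denervated minus contralateral, ran from -0.31 for Rnf43 to 0.10 for Sp5. Of the 9 genes 3 had a higher and 6 a lower mean in the denervated incisors, and their median difference was -0.004, beside a median of 0.02 over all genes. Of all genes 55.8% had a higher mean. At an unadjusted p under 0.05 there was 1 response gene with a lower mean, Rnf43, and 0 with a higher mean, where 2.11% and 4.1% of all genes were found. Sp5 was higher in all 5 pairs, as 6.58% of all genes were, and 0 response genes were lower in all 5, against 3.8% of all genes. In 0 of the 9 genes did the 2 groups of arrays separate without overlap, with the denervated arrays higher in 0.528% and lower in 0.423% of all genes.

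**Figure D1:**
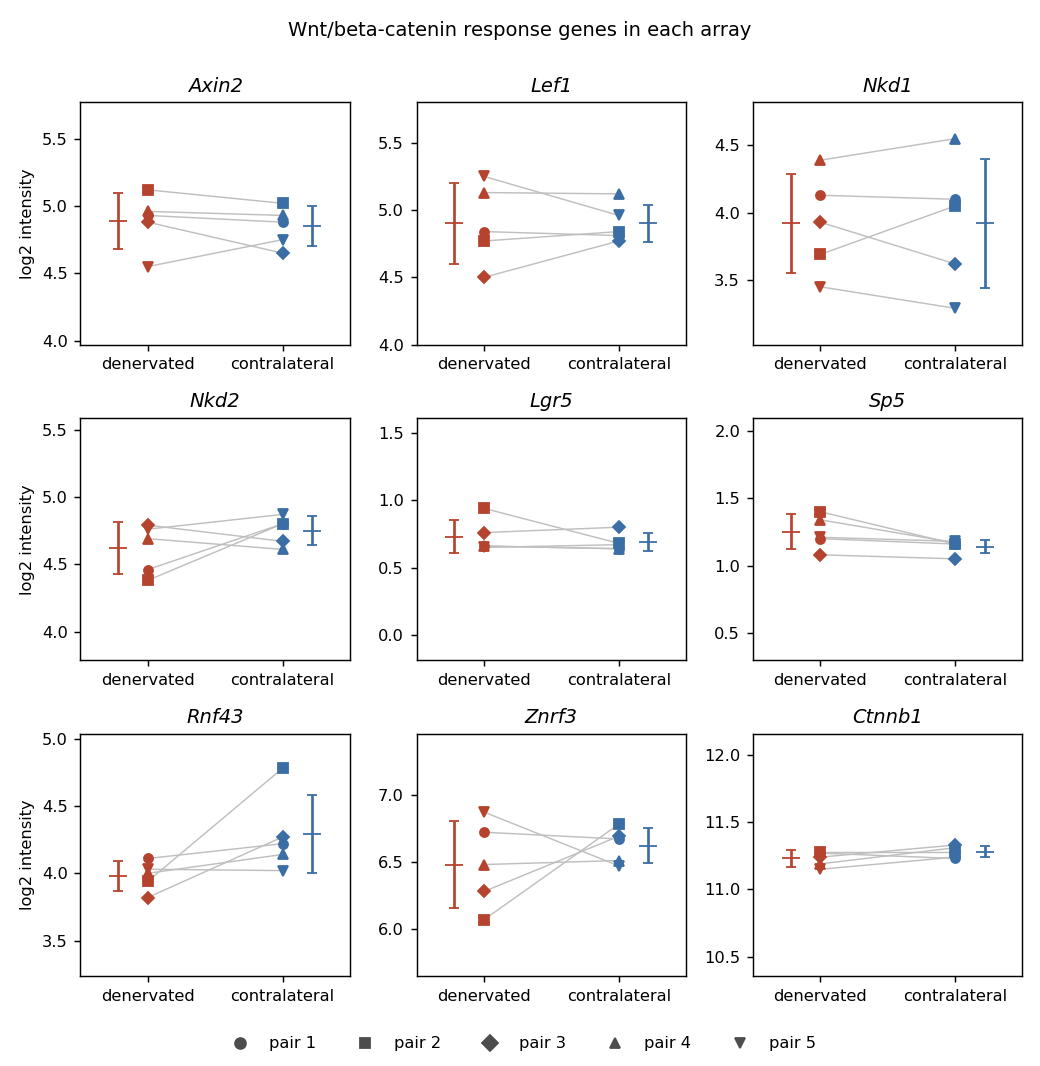
Log2 intensity of the 9 measured response genes in each array, with the 5 denervated arrays on the left of each panel and the 5 contralateral arrays on the right; lines join arrays of equal number, side bars give the mean and SD (n = 5), and each panel spans the same range of the log2 scale around its own level. The groups overlap in all 9 panels; the lowest arrays of Rnf43 and Znrf3 are denervated arrays 3 and 2.

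Axin2 is itself a target of beta-catenin and encodes a scaffold of the destruction complex, which makes it a feedback inhibitor and the usual reporter of the pathway. Its log2 value was 4.93, 5.12, 4.88, 4.96 and 4.55 in denervated arrays 1 to 5, against 4.88, 5.02, 4.65, 4.93 and 4.75 in contralateral arrays 1 to 5. The groups overlapped almost fully, and denervated array 5 was the lowest of the 10. It averaged 4.89 ± 0.21 in denervated and 4.85 ± 0.15 in contralateral incisors (SD, n = 5 each). Their difference was 0.04 ± 0.11 (SE), with a 95% confidence interval from -0.20 to 0.28 that corresponds to 0.87-fold to 1.22-fold of the contralateral intensity. The adjusted p was 0.948 in the limma fit, and 4 of 5 pairs were higher on the denervated side. With the pair as a block the interval was -0.14 to 0.22. The other Axin2 probe set, with means of 0.75 ± 0.07 and 0.79 ± 0.12 in denervated and contralateral arrays, lay at the low end of the scale and gave -0.04 ± 0.07. The sign of so small a difference was not stable: it was -0.02 without denervated array 2 and 0.13 without denervated array 5.

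Lef1 encodes a factor that binds DNA and recruits beta-catenin to its targets, and is itself induced by the pathway. Its values were 4.84, 4.77, 4.50, 5.13 and 5.25 in denervated arrays 1 to 5, against 4.81, 4.84, 4.77, 5.12 and 4.96 in contralateral arrays 1 to 5. Denervated arrays 3 and 5 were the lowest and the highest of the 10, so the denervated group enclosed the other. The difference was -0.004 ± 0.14 (SE, interval -0.30 to 0.29, adjusted p 0.998 by limma), or -0.21 to 0.20 with the pair as a block. Within pairs it was 0.03, -0.07, -0.27, 0.007 and 0.29 in pairs 1 to 5. Without denervated array 3 it was 0.10, and without denervated array 5 it was -0.09. The other Lef1 probe set was near the low end, with 0.97 ± 0.18 in denervated and 0.90 ± 0.13 in contralateral arrays.

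Sp5 encodes a zinc finger transcription factor that is a direct target of beta-catenin. It read 1.20, 1.40, 1.08, 1.34 and 1.21 in denervated arrays 1 to 5, against 1.16, 1.16, 1.05, 1.17 and 1.18 in contralateral arrays 1 to 5. All 10 values were below the array medians, and the difference of 0.10 ± 0.07 (interval -0.06 to 0.26, limma adjusted p 0.816) was within what arrays of a group differed by. It was larger in pairs 2 and 4, at 0.24 and 0.17, than in the others, at 0.03 to 0.04, and the mean difference was 0.07 without denervated array 2. Lgr5, a receptor for R-spondins and a marker of stem cells in several epithelia, had 0.66, 0.94, 0.76, 0.66 and 0.65 in denervated arrays 1 to 5, against 0.64, 0.68, 0.80, 0.64 and 0.67 in contralateral arrays 1 to 5. The difference of 0.05 ± 0.07 (limma adjusted p 0.906) was -0.004 without denervated array 2, the highest, and 0.08 without contralateral array 3. Its other probe set gave 0.57 ± 0.07 and 0.65 ± 0.10 in denervated and contralateral arrays, so both probe sets were dim, and their differences had opposite signs.

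Beta-catenin acts on a target through TCF and LEF factors that recognise CTTTG followed by a pair of A or T bases, and promoters of Sp5, Lef1 and Axin2, the transcription factor targets and the reporter of the set, are shown with this motif. The words searched were CTTTGAA (found in 5.14% of the promoters below), then CTTTGAT (in 3.73%), then CTTTGTA (in 3.63%) and lastly CTTTGTT (in 5.85%), on both strands, in 300 bases around a transcription start (250 before it and 50 from it on) of the mouse RefSeq annotation, build GRCm38.p6. The words cannot overlap each other on the same strand, and any of the 4 occurs in 16.9% of the 32851 promoters of the table. The table holds 14 promoters for 8 of the 10 genes; Lgr5 and Znrf3 are missing from it. Of the 14 promoters 2 held a match, 1 of Sp5 and 1 of the 4 of Lef1. Capitals mark the matches, and each sequence runs 5′ to 3′ along its gene.
Sp5, chr2:70474673-70474972, plus strand: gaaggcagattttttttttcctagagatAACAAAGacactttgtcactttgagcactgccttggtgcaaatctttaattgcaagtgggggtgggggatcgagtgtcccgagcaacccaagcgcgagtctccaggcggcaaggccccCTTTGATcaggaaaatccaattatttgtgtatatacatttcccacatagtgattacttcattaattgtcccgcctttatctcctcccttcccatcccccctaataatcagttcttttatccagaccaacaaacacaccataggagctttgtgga
Lef1, chr3:131156044-131156343, plus strand, the furthest downstream of its 4 starts: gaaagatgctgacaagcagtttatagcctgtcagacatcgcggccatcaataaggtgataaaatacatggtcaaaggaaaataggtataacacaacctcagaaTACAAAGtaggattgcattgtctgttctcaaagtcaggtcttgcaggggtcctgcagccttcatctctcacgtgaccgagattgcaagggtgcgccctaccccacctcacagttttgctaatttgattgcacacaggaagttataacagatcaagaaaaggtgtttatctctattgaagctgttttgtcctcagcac
Axin2, chr11:108920099-108920398, plus strand: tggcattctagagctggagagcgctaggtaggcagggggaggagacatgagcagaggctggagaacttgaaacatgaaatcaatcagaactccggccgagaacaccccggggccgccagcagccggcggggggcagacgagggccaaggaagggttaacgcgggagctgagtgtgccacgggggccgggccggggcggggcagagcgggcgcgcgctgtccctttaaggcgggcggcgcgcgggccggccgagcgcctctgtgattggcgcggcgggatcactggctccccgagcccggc

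The Sp5 window holds CTTTGTT on the opposite strand from position -222 and CTTTGAT on the gene's strand from position -104, counted from the start. The Lef1 window holds CTTTGTA on the opposite strand from position -147. In the Axin2 window none of the 4 words occurs, and nothing about TCF binding follows from that, since binding sites can lie outside a window. The arrays do not tell which start was used, and the intensities of the 3 genes, with differences of 0.10, -0.004 and 0.04, give no basis for relating the motif to the operation.

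Rnf43 and Znrf3 encode related membrane ubiquitin ligases that remove Frizzled receptors from the cell surface and so lower the response to Wnt; R-spondins bound to LGR receptors block them. Rnf43 had the largest difference of the set. Its values were 4.11, 3.94, 3.82, 4.00 and 4.03 in denervated arrays 1 to 5, against 4.22, 4.78, 4.27, 4.14 and 4.02 in contralateral arrays 1 to 5. The denervated arrays formed a narrow band, contralateral array 2 stood above all others, and contralateral array 5 lay inside the denervated band. The means were 3.98 ± 0.11 and 4.29 ± 0.29 in denervated and contralateral incisors (SD, n = 5 each). The difference was -0.31 ± 0.13 (SE, interval -0.59 to -0.02), with an adjusted p of 0.79 by limma, or 0.489 with the pair as a block, so that it did not pass. Within pairs 1 to 5 it was -0.11, -0.84, -0.45, -0.15 and 0.01, lower in 4 of 5 pairs. Without contralateral array 2 the difference was -0.18. The array has no other Rnf43 probe set that could serve as a check.

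Znrf3 had its lowest within-pair differences in the same pairs as Rnf43. It had 6.72, 6.07, 6.28, 6.48 and 6.87 in denervated arrays 1 to 5, against 6.67, 6.78, 6.69, 6.51 and 6.47 in contralateral arrays 1 to 5. Denervated arrays 2 and 3 were the lowest of the 10 and denervated array 5 was the highest, while the contralateral arrays lay close together. The difference was -0.14 ± 0.14 (interval -0.45 to 0.17, limma adjusted p 0.854), and -0.71 and -0.41 in pairs 2 and 3 against 0.41 in pair 5. It was -0.04 without denervated array 2, -0.09 without denervated array 3, -0.07 without both arrays of pair 3 and -0.24 without denervated array 5. The other Znrf3 probe set, near the low end at 1.08 ± 0.08 in denervated and 1.17 ± 0.15 in contralateral arrays, gave -0.09 ± 0.08.

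**Figure D2:**
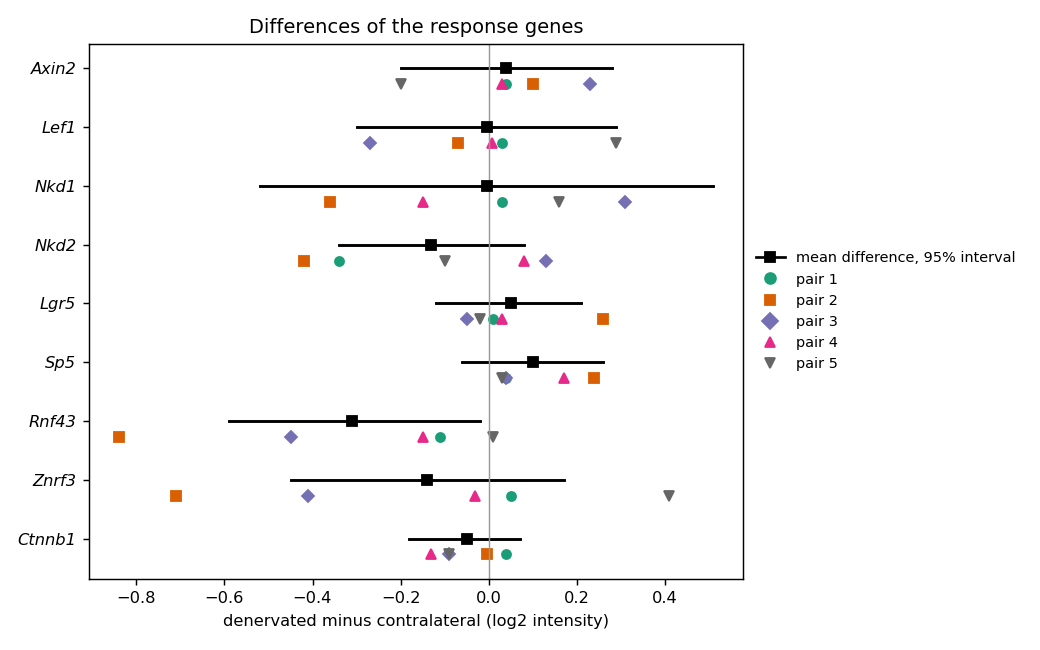
Denervated minus contralateral difference of each response gene on the log2 scale: black squares and lines give the mean difference and its 95% confidence interval from limma without the block, coloured symbols below them the difference within each of the 5 pairs. The interval of Rnf43, -0.59 to -0.02, is the 1 that does not reach 0, and pairs 2 and 3 give its lowest differences and those of Znrf3.

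Pairs 2 and 3 also differed in their cell type markers. The dental epithelium list had a mean log2 level of 6.25 in denervated array 3, against 8.40 in contralateral array 3, and differed by -2.15 in that pair but by 0.12, -0.12, 0.37 and -0.25 in pairs 1, 2, 4 and 5. Of its 17 measured markers 16 had a lower mean, with denervated array 3 among the arrays averaged; the list spanned 6.25 to 8.89 in the denervated and 8.40 to 9.03 in the contralateral incisors. The macrophage list, with 12 of 12 markers at a higher mean, spanned 5.71 to 6.57 and 5.38 to 5.77 in denervated and contralateral arrays. Its differences in pairs 2 and 3 were 0.84 and 0.96. This list was also higher in pairs 1, 4 and 5, by 0.24, 0.09 and 0.33. Of its 12 markers 9 were higher in all 5 pairs, against 6.58% of all genes. Markers of smooth muscle and pericytes, 10 of 11 at a higher mean, spanned 5.29 to 6.29 in denervated and 5.15 to 5.32 in contralateral arrays. They differed by 1.05 and 0.76 in pairs 2 and 3 and by 0.11, 0.16 and -0.03 in pairs 1, 4 and 5. The Schwann cell list, 7 of 8 higher, spanned 2.86 to 4.62 and 2.82 to 3.25 in denervated and contralateral arrays and differed by 1.58 and 0.66 in pairs 2 and 3. In pairs 1, 4 and 5 this list differed by -0.18, 0.09 and -0.03, and 4 of its 8 measured markers had a mean under 2, at the dim end. Endothelial markers differed by 0.64 and 0.62 in pairs 2 and 3 and by -0.12 to -0.11 in the others. In the remaining lists, odontoblast markers differed in opposite directions, by -0.64 in pair 2 and 0.21 in pair 3, and cell cycle genes by 0.41 and 0.80. Without the 4 arrays of pairs 2 and 3, an alternative chosen after seeing the data, the difference was -0.08 for Rnf43, 0.14 for Znrf3 and -0.04 for Axin2. The part of the cell type markers in these differences was not tested.

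**Figure D3:**
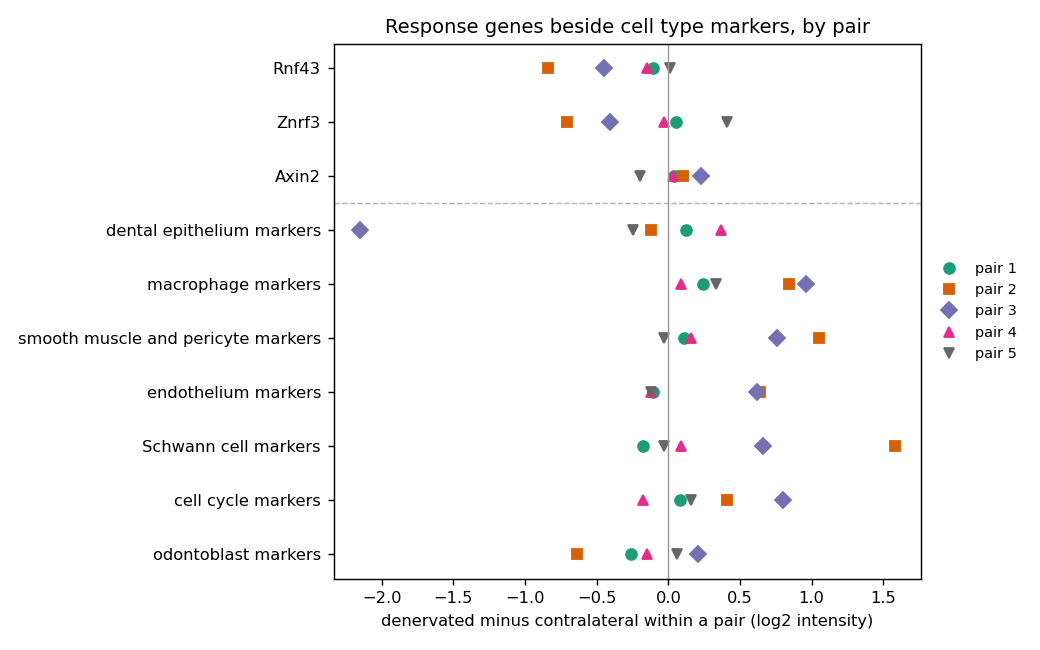
Denervated minus contralateral difference within each of the 5 pairs, on the log2 scale, for Rnf43, Znrf3 and Axin2 (above the dashed line) and for the mean level of 6 cell type marker lists and a list of cell cycle genes (below it). Pairs 2 and 3 lie to the left for Rnf43 and Znrf3 and to the right for macrophage, smooth muscle and pericyte, and endothelial markers; the epithelial list of pair 3 is at -2.15. In pair 2 the array that stood apart was contralateral array 2 for Rnf43, at 4.78. It was denervated array 2 for Znrf3, at 6.07, and for the smooth muscle and pericyte list, at 6.29.

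Nkd1 and Nkd2 encode proteins that bind Dishevelled and are feedback inhibitors of the pathway. Nkd1 had 4.13, 3.69, 3.93, 4.39 and 3.45 in denervated arrays 1 to 5, against 4.10, 4.05, 3.62, 4.55 and 3.29 in contralateral arrays 1 to 5. Both groups spread over about the same range, and the arrays of pair 4 were the highest and those of pair 5 the lowest of their groups. The difference was -0.003 ± 0.24 (SE, limma adjusted p 0.999). The interval narrowed to -0.24 to 0.24 with the pair as a block, against -0.52 to 0.51 without it. Of its 4 probe sets 3 had a lower and 1 a higher mean in the denervated arrays, with differences between -0.14 and 0.06. Leaving out 1 array moved the value between -0.16, without contralateral array 5, and 0.15, without contralateral array 4.

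For Nkd2 the values were 4.46, 4.38, 4.79, 4.69 and 4.76 in denervated arrays 1 to 5, against 4.80, 4.80, 4.67, 4.61 and 4.87 in contralateral arrays 1 to 5. Denervated arrays 1 and 2 were below all others, and the remaining 3 lay within the contralateral range. The difference was -0.13 ± 0.10 (interval -0.34 to 0.08, limma adjusted p 0.818), and -0.07 without denervated array 2. All 4 Nkd2 probe sets had a lower mean in the denervated incisors, with differences from -0.20 to -0.05.

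Ctnnb1 encodes beta-catenin itself, whose amount is set mainly by degradation of the protein, so that its transcript is not a measure of signalling. Its log2 values, 11.27, 11.28, 11.24, 11.19 and 11.15 in denervated arrays 1 to 5, stood against 11.23, 11.28, 11.33, 11.31 and 11.24 in contralateral arrays 1 to 5. It was the steadiest gene of the set above the low end of the scale, with SDs of 0.06 and 0.04 in denervated and contralateral arrays. The difference was -0.05 ± 0.06 (interval -0.18 to 0.07, or 0.88-fold to 1.05-fold, limma adjusted p 0.863), and -0.03 without denervated array 5. All 3 Ctnnb1 probe sets had a lower mean on the denervated side, by -0.15, -0.05 and -0.05, and 1 of them did so in 5 of 5 pairs.

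Over all 21 probe sets of the 9 genes, 5 had a higher and 16 a lower mean in the denervated incisors. The share over all probe sets of the array was not computed. By the brightest probe set alone, 3 of the 9 genes had a higher and 6 a lower mean, where 55.8% of all genes had a higher mean. Probe sets of 1 gene share its transcript and are not independent. For Axin2, Lef1, Nkd1 and Lgr5 the probe sets disagreed in direction, and for Nkd2, Znrf3 and Ctnnb1 they did not. In Axin2, Lef1 and Lgr5 the disagreement rested on probe sets at the dim end of the scale.

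The genes whose values followed Axin2 most closely over the 10 arrays were not members of the set. The search covered 7918 genes with a mean of 4 or more, and genes with only a clone or provisional name were passed over. Among the rest, Pearson's correlation with Axin2 was highest for Hax1, a mitochondrial survival factor gene, and for the DNA repair enzyme gene Parp2, at 0.99 each. Hprt, of purine salvage, followed with 0.94, and the ATPase gene Ruvbl2 and the mitochondrial aminotransferase gene Got2 with 0.93 each. Of the other 8 response genes Nkd1 had the highest correlation with Axin2, 0.56, and Znrf3 the lowest, -0.56. These correlations are across 10 arrays that form 5 pairs, share 1 normalization and include both groups, and are a description only. Like Axin2, all 5 genes were highest in denervated array 2 and lowest in denervated array 5, with contralateral array 3 next to lowest. Having been picked by their correlation over these same arrays, they give no separate result by sharing this order.

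The rest of the pathway was read from 6 lists with 105 genes outside the set, of which 103 were measured, some of them in more than 1 list; the lists were drawn up with earlier results of these data known. In the limma fit 0 of the 103 genes passed, without or with the pair as a block, the smallest adjusted p being 0.79 and 0.318. Of the 103 genes 46 had a higher and 57 a lower mean in the denervated incisors, with a median difference of -0.02. At an unadjusted p under 0.05, 7 genes (6.8%) had a higher mean, beside 4.1% of all genes, and 11 (10.7%) a lower mean, beside 2.11% of all genes. In all 5 pairs 7 genes (6.8%) were higher and 10 (9.71%) were lower, beside 6.58% and 3.8% of all genes. In 6 genes the groups did not overlap: Wnt6, Wnt10a, Fzd3, Apc and Prox1 (4.85% of the 103, beside 0.423% of all genes) with the denervated arrays lower, and Pygo2 (0.971%, beside 0.528%) with the denervated arrays higher.

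**Figure D4:**
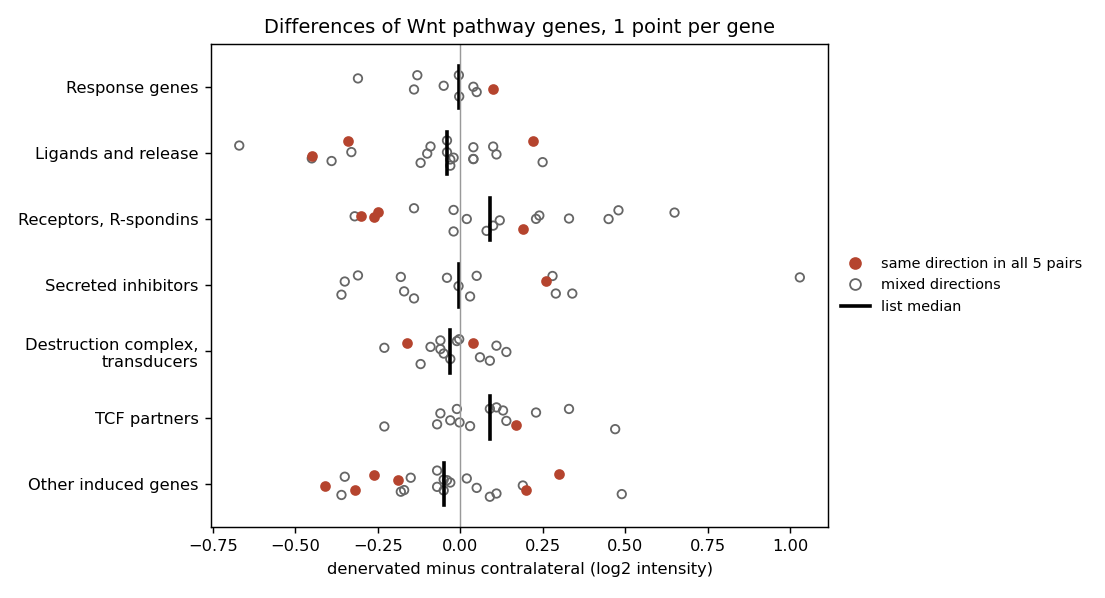
Denervated minus contralateral difference on the log2 scale, 1 point per gene, for the 9 response genes and 6 lists of Wnt pathway genes; filled points had the same direction in all 5 pairs, and black bars are list medians. The list medians lie between -0.05 and 0.09, and the response genes reach from -0.31 to 0.10.

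Among the ligands, and the genes for their release, 7 of 21 had a higher and 14 a lower mean, with a median difference of -0.04 and 10 genes below a mean of 2. Wnt6, a ligand gene, had 7.31, 7.08, 6.92, 7.37 and 7.24 in denervated arrays 1 to 5, against 7.63, 7.64, 7.50, 7.59 and 7.83 in contralateral arrays 1 to 5. Every denervated array was below every contralateral array. The difference was -0.45 ± 0.10 (SE, interval -0.67 to -0.24), with a limma adjusted p of 0.79, or 0.318 with the pair as a block. Wnt10a, a ligand gene of the tooth whose mutations in humans cause missing teeth, had 7.24, 6.63, 7.15, 7.38 and 7.43 in the denervated arrays, against 7.53, 7.46, 7.51, 7.48 and 7.57 in the contralateral arrays. Here too the groups did not overlap, with a difference of -0.34 ± 0.13, or -0.21 without denervated array 2 and -0.18 without pairs 2 and 3. Wls, whose protein carries Wnt ligands to the cell surface, differed by 0.22 ± 0.07 and was higher in 5 of 5 pairs, but the mean of its probe sets gave 0.09.

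Receptor and R-spondin genes had a higher mean in 11 and a lower mean in 7 of 18, with a median of 0.09. The Frizzled receptor gene Fzd3 had 6.86, 7.02, 6.71, 6.93 and 6.78 in denervated arrays 1 to 5, against 7.18, 7.11, 7.17, 7.23 and 7.13 in contralateral arrays 1 to 5. The groups did not overlap, and the difference was -0.30 ± 0.07 (limma adjusted p 0.79, or 0.399 with the block), or -0.19 with the mean of its probe sets. Lgr4, a receptor for R-spondins, differed by -0.26 ± 0.09 and was lower in 5 of 5 pairs; it gave -0.15 with the mean of its probe sets and -0.16 without pairs 2 and 3. The R-spondin gene Rspo4 differed by 0.65 ± 0.23, with 1.50 and 1.09 in pairs 2 and 3, and by 0.21 without these pairs.

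The secreted inhibitors divided evenly, 7 higher and 8 lower of 15, with a median of -0.005. Dkk3 differed by 0.26 ± 0.09 and was higher in 5 of 5 pairs, and the LRP receptor blocker gene Dkk1, also a target of beta-catenin, differed by -0.36 ± 0.14 and was lower in 4 of 5. Dkk1 differed by -0.55 without pair 3, in which it was higher by 0.41, and by -0.51 without pairs 2 and 3. It differed less, by -0.29 and -0.28, without pair 1 or pair 2 with the block, and by -0.27 with the mean of its probe sets. The Wnt-binding antagonist gene Frzb differed by 0.28 ± 0.15, or by 0.02 without pairs 2 and 3. The destruction complex and transducers had 5 higher and 10 lower of 15, with a median of -0.03. In this list Apc, a scaffold gene of the complex, differed by -0.16 ± 0.07 and was lower in 5 of 5 pairs, and the kinase gene Gsk3b differed by -0.23 ± 0.10 and was lower in 4 of 5. Without pairs 2 and 3 they differed by -0.08 and -0.06, and the mean of its probe sets gave -0.25 for Apc. The tankyrase gene Tnks2, whose enzyme marks axin for degradation, differed by -0.09 ± 0.06, by -0.15 without pairs 2 and 3, and by -0.02 with the mean of its probe sets.

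Partners of beta-catenin on DNA had 9 higher and 6 lower of 15, with a median of 0.09. Pygo2, a coactivator gene, had 5.96, 5.97, 5.96, 5.92 and 5.93 in the denervated arrays, against 5.78, 5.71, 5.81, 5.86 and 5.73 in the contralateral arrays, without overlap. Its difference was 0.17 ± 0.06 (limma adjusted p 0.79). The TCF gene Tcf7l1, which mostly represses targets, differed by 0.33 ± 0.13, and by 0.12 without pairs 2 and 3. The corepressor gene Tle2 differed by 0.47 ± 0.20, and by 0.30 without pairs 2 and 3. Of 23 other genes that beta-catenin is known to induce in some tissue, 8 had a higher and 15 a lower mean, with a median of -0.05. At an unadjusted limma p under 0.05, 1 was higher and 4 were lower, beside 4.1% and 2.11% of all genes. Dkk1, described above, is among these lower genes. In all 5 pairs 2 were higher and 4 lower, beside 6.58% and 3.8% of all genes. Sox9, a factor of cartilage and stem cells, differed by 0.19 ± 0.07, and by 0.10 without pairs 2 and 3. The homeobox gene Prox1, at the low end of the scale, differed by -0.32 ± 0.13, by -0.19 without contralateral array 3, and by -0.02 with the mean of its probe sets.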

How the data were processed

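Total RNA of incisor dental mesenchyme was measured on 10 arrays, 5 per group. The authors deposited 1 log2 intensity for each probe set and array; RMA, by definition a background correction, quantile normalization and probe summary, is the tool given by the submitters' processing notes, with its version and other steps not given in the sources used here. They were used as deposited. Of 45101 probe sets, 64 controls were left out; of the other 45037, 34945 had 1 gene symbol, 932 several and 9160 none in the platform annotation. Entrez identifiers matched a RefSeq table for 34741, with 0 symbols changed. The groups were compared over 18193 genes with limma 3.58.1 (lmFit, eBayes) in R 4.3.3 and Benjamini-Hochberg adjustment, threshold 0.05; the fit was checked on data with known answers. Intervals are 95% intervals of that fit. The number of arrays limits the precision, with a median standard error of 0.10.

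Groups and numbers came from the sample titles. Deviations from the group means had correlations of 0.182 to 0.572 for arrays of equal number (5 pairs), against -0.408 to 0.221 for arrays of unequal number (20 pairs). Denervated array 3 had a higher correlation with contralateral array 1, 0.221, than with contralateral array 3, 0.182. Per the design text the 2 sides came from 5 mice, so equal numbers were taken to pair the arrays. The labels do not state this pairing. The labels name no fit, so the fit without the pair was made the main one and the fit with it an alternative. Standard errors, intervals and p-values therefore leave out the pairing unless given with the block. Whether the samples of a group were handled on different days is not given.

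The members and all lists were chosen with earlier results of these data known. Besides the members, the text names the 3 genes with the smallest unadjusted p of each pathway list, the 5 genes most correlated with Axin2 (clone and provisional names passed over) and fixed markers. Alternatives were the pair as a block, a trended robust prior, median centring, quantile normalization, the mean of all probe sets, a minimum mean of 4, other probe sets, and leaving out each array or pair. Tcf7, Kremen2, Ephb2 and some marker genes were not analysed here. Promoter sequences are from RefSeq, GRCm38.p6.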

Additional observations from a re-analysis of the deposited data

Results flagged for a closer look

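In 11 of 86 groups of 5 arrays, from 43 named genes, the highest or lowest array lay apart from the others by more than 0.71 of the group's range; chance gives about 1 in 20 for groups taken without regard to their values. That rate does not apply as it stands here, because some of the genes were chosen by their values and the epithelial markers move together. All 11 were arrays numbered 3. Among the response genes, contralateral array 3 had 0.80 for Lgr5, with the others at 0.64 to 0.68, and 1.05 for Sp5, with the others at 1.16 to 1.18; both genes are at the low end of the scale. Denervated array 3 had 7.23 for Apc (others 7.43 to 7.51) and 1.73 for the ligand gene Wnt3a (others 3.41 to 3.81). It was also low in epithelial markers, with 9.61 for Ambn (others 12.91 to 13.09), 8.23 for Amelx (others 12.81 to 12.94), 6.83 for Krt14 (others 8.86 to 9.12) and 7.41 for Cdh1 (others 8.92 to 9.39). Contralateral array 3 had 1.59 for Prox1 (others 0.89 to 0.98), 3.92 for the myelin gene Mbp (others 4.22 to 4.31) and 5.78 for the proliferation marker gene Mki67 (others 6.45 to 6.66).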

How the results depend on the processing

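The count of response genes and of pathway genes past the threshold was 0 under every alternative run. Over all genes it was 0 too, apart from 1 gene, Fcna, a lectin gene, without pair 4 and with the replicate block (difference 1.56, adjusted p 0.027 by limma; 1.35 and 0.79 with all arrays). Genes at an unadjusted p under 0.05 numbered 1129, against 1805 with the replicate block, 1748 and 2188 with the block and without pair 1 or pair 4, 535 among genes with a mean of 4 or more, and 559 without pairs 2 and 3; the last 2 tested fewer genes and fewer arrays. The block changed no call. The median difference of the response genes, -0.004, was -0.08 after quantile normalization, -0.09 over those with a mean of 4 or more, and -0.05 over those with a mean of 2 or more. Of 207 recomputed member differences 33 had the opposite sign, in 5 genes whose differences were, to the printed decimals, at most as large as their standard errors. Axin2 was -0.0007 with the mean of its probe sets, -0.01 after quantile normalization, -0.004 without pair 3 with the block, -0.04 without pairs 2 and 3, and -0.04 in its other probe set (leaving out 1 array, -0.02 to 0.13). Lef1 was 0.04 with the mean of probe sets, 0.01 and 0.06 without pair 2 or pair 3 with the block, 0.11 without both pairs and 0.08 in its other probe set (-0.09 to 0.10). Nkd1 was 0.0008 after median centring, 0.09 and 0.03 without pair 2 or pair 4 with the block, 0.01 without pairs 2 and 3 and 0.06 in 1 other probe set (-0.16 to 0.15). Lgr5 was -0.02 with the mean of probe sets, -0.005 without pair 2 with the block and -0.08 in its other probe set (-0.004 to 0.08), and Znrf3 was 0.002 without pair 2 with the block and 0.14 without pairs 2 and 3. Of 416 values of the other 19 named pathway genes 1 had the opposite sign, Sfrp2 at -0.62 without pairs 2 and 3. Low intensities limit Lgr5 and Sp5, whose means were under 2 and were treated as not told apart from background, without a detection test.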

Other observations

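A pair of Wnt pathway genes, chosen after their values were seen, varied far more between pairs than any response gene. Sfrp2, which encodes a secreted frizzled-related protein that binds Wnt ligands, had 7.71, 10.54, 10.35, 8.32 and 8.47 in denervated arrays 1 to 5, against 9.18, 7.28, 6.61, 7.84 and 9.33 in contralateral arrays 1 to 5. Its differences in pairs 1 to 5 were -1.48, 3.26, 3.73, 0.49 and -0.86, with a mean of 1.03 ± 0.66 (SE), or 0.66 without denervated array 2 and 0.67 without contralateral array 3. The ligand gene Wnt3a had 3.71, 3.41, 1.73, 3.81 and 3.62 in denervated arrays 1 to 5, against 4.00, 4.37, 3.82, 3.30 and 4.15 in contralateral arrays 1 to 5, a difference of -0.67 ± 0.37, or -0.29 without denervated array 3, the array low in epithelial markers.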
